A study of Homo sapiens with 12 samples.

Results

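STAT3, STAT5A and STAT5B are transcription factors that receptor tyrosine kinases and cytokine receptors switch on, and SOCS1, SOCS2, SOCS3, CISH, PIM1 and PIM2 are genes that STAT factors are known to switch on in turn. These 9 genes were matched by symbol among the 58381 genes of the count table and of the FPKM table, and all 9 were found in both. All 9 also passed the filter on low counts, which left 15944 genes to be tested.

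The libraries were made from polyadenylated RNA of HMC-1, a human mast cell leukemia line with an activating mutation of KIT, the receptor tyrosine kinase for stem cell factor. HMC-1.1 cells carry V560G-KIT and HMC-1.2 cells carry V560G and D816V together. HMC-1.3 cells were made from HMC-1.2 by CRISPR/Cas9 editing that reverted V560G and left D816V on 1 allele, and clone 1 and clone 2 are separate subclones of them. Each of these 4 groups had 3 libraries, from wells plated in parallel, so the p-values measure the spread between cultures of 1 line. Each HMC-1.3 group is 1 clone, so the loss of V560G, the selection of edited cells and the cloning cannot be told apart. HMC-1.1 is a subline of its own and was not edited.

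In the usual course of this pathway, an active receptor or kinase phosphorylates a STAT protein, which then pairs with another STAT, enters the nucleus and binds DNA at short inverted repeats. STAT5 is required for mast cells to develop and survive, and KIT with D816V is known to keep it phosphorylated. SOCS proteins and CISH are made in response and dampen the same receptors, whereas PIM1 and PIM2 are serine/threonine kinases that favor growth and survival. Phosphorylation was not measured in these libraries, which hold messenger RNA only.

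The total expected count per library lay between 29225900 and 43181402, with a common biological coefficient of variation of 0.044 in the fit. For 3 libraries (HMC-1.2 replicate 1, clone 1 replicate 3 and clone 2 replicate 1) the labels say that they were resent, and each count of called genes among the 9 was the same without them. Of 12 mast cell markers, 9 or 10 reached 1 FPKM in every group, with KIT at 346 to 469 FPKM and HDC, which makes histamine, at 814 to 1037. The tryptase gene TPSAB1 gave 592 FPKM on average in HMC-1.2 while HMC-1.1 gave 37.2, clone 1 gave 44.2 and clone 2 gave 29.4, and the high affinity IgE receptor chains FCER1A and MS4A2 and the chymase gene CMA1 stayed at or below 1.27 FPKM in all libraries. The T cell, monocyte, erythroid and fibroblast markers summed to at most 3.88 FPKM per list in any library. The epithelial marker KRT19 lay at 437 FPKM in HMC-1.2 and at 172 to 216 in the other groups while EPCAM was at or below 0.17, and the part of KRT19 or TPSAB1 expressing cells in the results was not tested.

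Expression of the 9 genes covered a wide range, read here in FPKM, a unit that corrects for transcript length and so allows different genes to be compared. PIM1 was the highest in every subline, at 352 to 395 FPKM on average, above at least 98.4% of the genes tested. SOCS3 was the lowest, at 3.00 to 9.73 FPKM, and ranked above 31.9% of the genes tested in clone 1 and above 51.9% in clone 2. In HMC-1.2 the order below PIM1 was PIM2 (114 FPKM), STAT5A (99.6), STAT5B (73.9), STAT3 (65.5), CISH (61.6), SOCS2 (33.7), SOCS1 (31.3) and SOCS3 (7.31). Neighbors in this order were separated in their libraries except SOCS2 and SOCS1, whose ranges overlapped, and STAT3 and CISH, which met at 63.8 FPKM. In clone 1, STAT5B (79.2 FPKM) ranked above PIM2 (75.0), though their libraries overlapped, and in clone 2 the ranges of STAT5A, STAT5B and CISH overlapped, all 3 covering 69.4 to 69.9 FPKM.

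**Figure D1:**
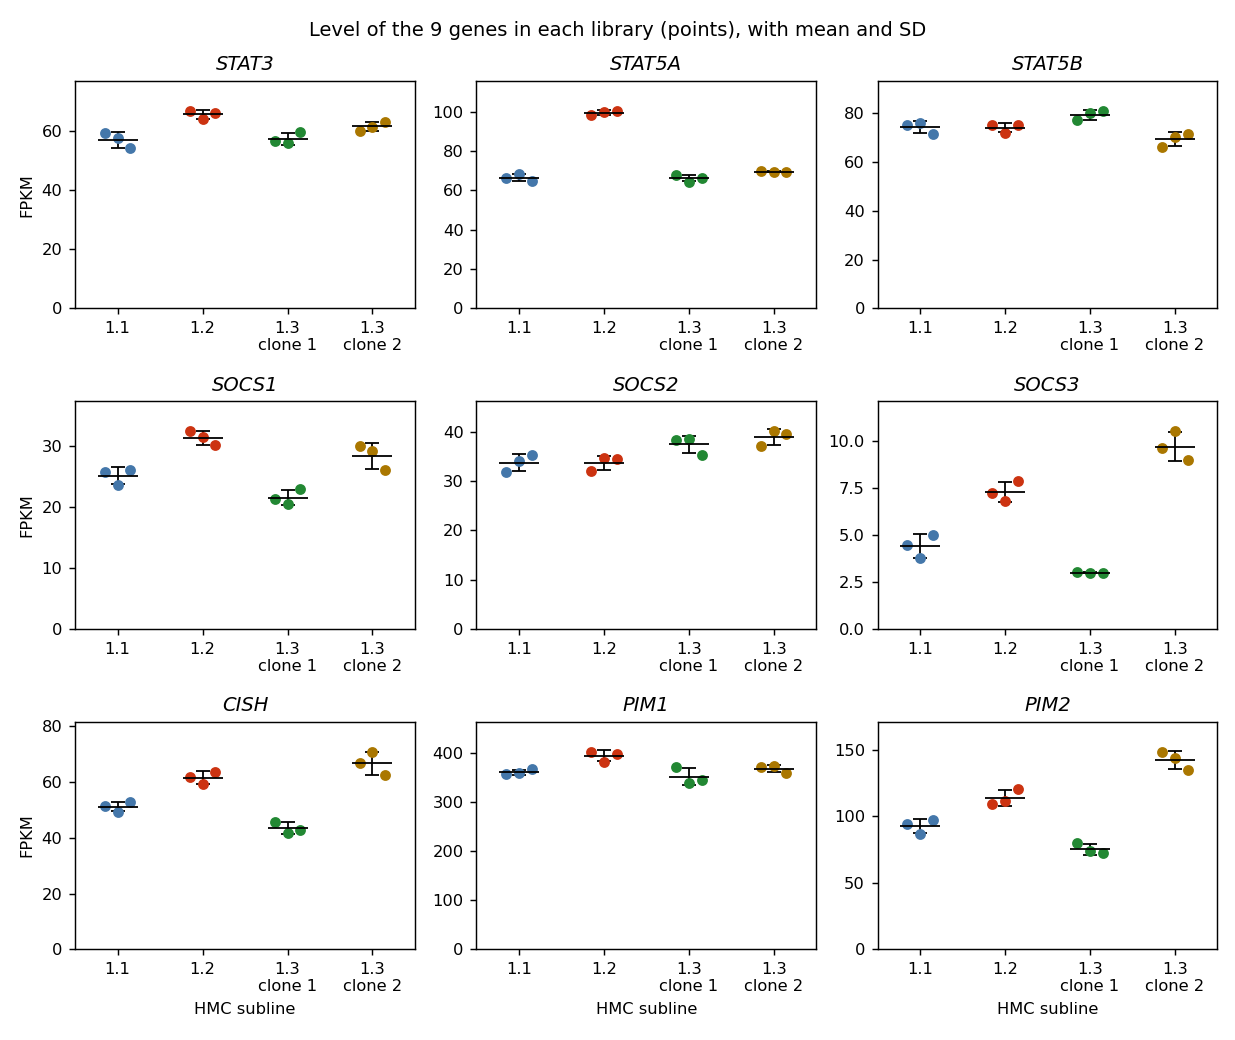
Level of each of the 9 genes in FPKM (vertical axes, from 0) in the 3 libraries of each HMC subline (horizontal axes). Points are libraries, long bars are means and short bars the SD. STAT5A stands apart in HMC-1.2 at 98.2 to 100.5 FPKM, and SOCS3 runs from about 3.00 FPKM in clone 1 to 10.6 in a library of clone 2.

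The differences below are log2 fold changes of counts, and called genes are those with over 1.5-fold change (0.585 on the log2 scale) whose adjusted p was below 0.05. Against HMC-1.2, 3 of the 9 genes were called in HMC-1.3 clone 1, all lower (SOCS3, PIM2 and SOCS1), where 20.0% of all genes tested were called and 8.18% were called lower. The count was 5, with STAT5A and CISH added, in DESeq2 and without replicate 1 of clone 1. It was 2 with counts scaled by library totals alone and in limma on log2(FPKM + 1). With edgeR's glmTreat, which tests against 1.5-fold itself, it was 1. None of the 9 was called in clone 2, where 16.5% of all genes were (edgeR's quasi-likelihood test, Benjamini-Hochberg adjusted). By adjusted p alone 7 of the 9 passed in clone 2, beside 48.5% of all genes, with 3 higher (24.7% of all genes) and 4 lower (23.8%). At an unadjusted p under 0.05 all 9 passed there, and DESeq2 also called 0 of them. In HMC-1.1 only SOCS3 was called, also lower, where 17.6% of all genes were called and 7.52% called lower. By adjusted p alone 7 of the 9 passed in clone 1 and 7 in HMC-1.1, all of them lower, beside 59.4% and 53.7% of all genes in either direction and 29.3% and 26.5% lower. The median log2 fold change of the 9 genes was -0.58 for clone 1, -0.08 for clone 2 and -0.31 for HMC-1.1, beside 0.014, 0.0 and 0.009 over all genes tested. These 3 comparisons share the HMC-1.2 libraries. In bulk RNA, fewer cells that express a gene and less RNA per cell cannot be told apart.

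**Figure D2:**
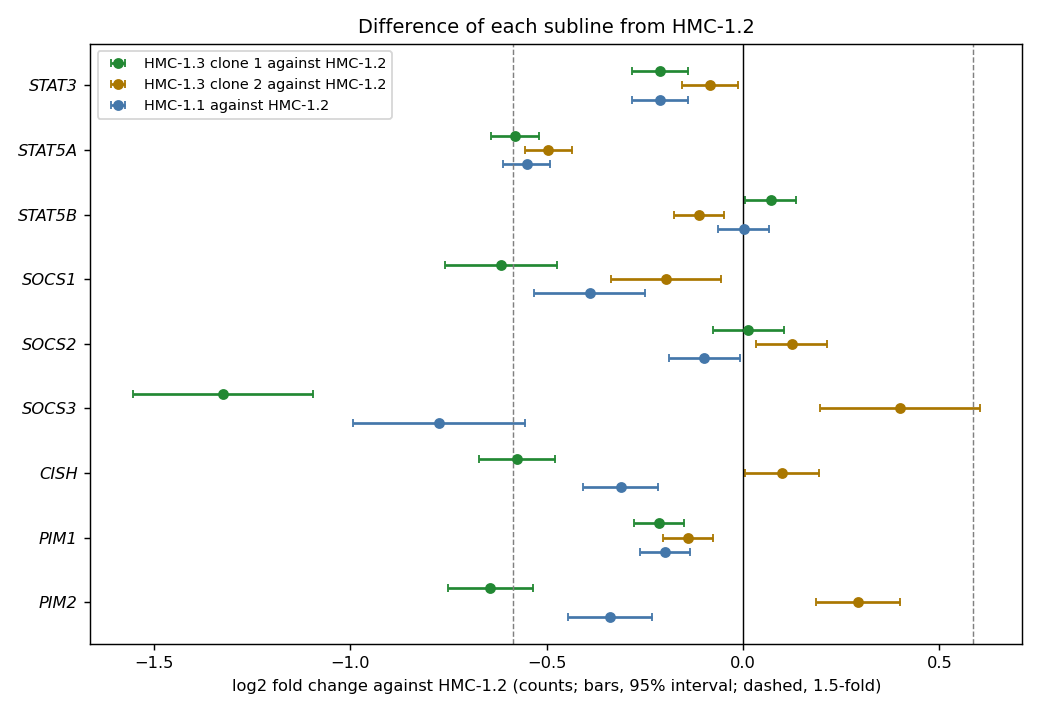
Log2 fold change of each gene against HMC-1.2 (horizontal axis) in HMC-1.3 clone 1, HMC-1.3 clone 2 and HMC-1.1, from counts. Bars are 95% confidence intervals of the fit and dashed lines mark a 1.5-fold change. STAT5A lies between -0.58 and -0.50 in all 3 sublines, whereas SOCS3 lies at -1.33 in clone 1 and at 0.40 in clone 2.

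Between the edited clones, to which the labels give the same KIT genotype, 3 of the 9 genes were called, SOCS3, PIM2 and CISH, all lower in clone 1, beside 12.6% of all genes in either direction and 4.25% lower. By adjusted p alone 8 of the 9 passed, all but PIM1, beside 50.2% of all genes. Of these, 7 were lower in clone 1 (24.7% of all genes) and 1, STAT5B, was higher (25.5%). Against HMC-1.1, none of the 9 was called in clone 1, beside 1.01% of all genes (edgeR's quasi-likelihood test, Benjamini-Hochberg adjusted). SOCS1, SOCS3, CISH and PIM2 passed the adjusted p alone, all 4 lower in clone 1, beside 18.7% of all genes in either direction and 9.83% lower. DESeq2 called 0 of the 9 there as well, and 6 of them had an unadjusted p under 0.05, while leaving out replicate 2 of HMC-1.1 gave 1, SOCS3. In clone 2 against HMC-1.1, SOCS3 and PIM2 were called, both higher, beside 8.19% of all genes in either direction and 3.04% higher, and SOCS3 alone without that replicate. By adjusted p alone 7 of the 9 passed there (36.0% of all genes), 6 of them higher (18.5%) and 1, STAT5B, lower (17.5%).

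Of STAT3, STAT5A and STAT5B, STAT5A differed most between sublines. STAT5A lies on chromosome 17 of GRCh38, from 42287547 to 42311943 on the plus strand. Its level was 98.2, 100.02 and 100.5 FPKM in the HMC-1.2 libraries, 67.7, 64.4 and 66.5 in clone 1, 69.9, 69.4 and 69.4 in clone 2, and 66.3, 68.3 and 64.9 in HMC-1.1. All 3 HMC-1.2 libraries were above the other 9, and among the other 9 clone 1 and HMC-1.1 overlapped while clone 2 lay just above both. On counts, STAT5A fell by 0.58 (standard error 0.03) in clone 1, by 0.50 (0.03) in clone 2 and, in HMC-1.1, by 0.55 (0.03) relative to HMC-1.2, with adjusted p values of 1.9e-11, 1.7e-10 and 4.4e-11 in edgeR's quasi-likelihood test, Benjamini-Hochberg adjusted. None of these exceeded 1.5-fold. The value in clone 1 lay at the threshold, and it crossed it with DESeq2 (-0.60), with limma on log2(FPKM + 0.1) (-0.59) and without any 1 of 8 of the 12 libraries (-0.59 to -0.60). Against HMC-1.1, the log2 difference was -0.03 in clone 1 (95% interval -0.09 to 0.03) and 0.06 in clone 2 (-0.01 to 0.12), and neither passed the test. The 62 other genes tested within 1 Mb of STAT5A had median log2 fold changes from HMC-1.2 of -0.02 (clone 1), -0.08 (clone 2) and -0.07 (HMC-1.1).

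STAT5B, the close paralog beside it, did not share this pattern. It spans 42199176 to 42288633 on the minus strand of chromosome 17 and overlaps STAT5A over 1087 bases at their 5′ ends. Its level was 74.9, 71.8 and 75.1 FPKM in HMC-1.2, 76.9, 79.8 and 80.9 in clone 1, 66.0, 70.3 and 71.4 in clone 2, and 75.1, 76.0 and 71.5 in HMC-1.1. Clone 1 was the highest group and clone 2 the lowest, and HMC-1.1 and HMC-1.2 overlapped. STAT5B fell by 0.11 (standard error 0.03) in clone 2 against HMC-1.2, with an adjusted p of 0.0054 in edgeR's quasi-likelihood test, Benjamini-Hochberg adjusted. In clone 1 the log2 difference from HMC-1.2 was 0.07 (95% interval 0.01 to 0.13), which did not pass after adjustment (edgeR adjusted p = 0.057), and in HMC-1.1 it was between -0.06 and 0.07. The libraries were made with a stranded kit, but whether RSEM counted by strand is not given in the sources used here, so reads from the shared bases, and reads that match both paralogs, may have been divided between STAT5A and STAT5B.

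The balance of the STAT5 genes was read as a ratio in each library. The ratio of STAT5A to STAT5B FPKM was 1.31, 1.39 and 1.34 in the HMC-1.2 libraries, 0.880, 0.808 and 0.822 in clone 1, 1.06, 0.987 and 0.972 in clone 2, and 0.883, 0.899 and 0.907 in HMC-1.1. STAT5A exceeded STAT5B in all 3 HMC-1.2 libraries and in 1 clone 2 library, and STAT5B exceeded STAT5A in the other 8. No 2 of the 4 groups overlapped, and the two-sided exact permutation test gave p = 0.1 for each of the 6 pairs of groups (adjusted 0.1), the smallest that 3 against 3 libraries allow. HMC-1.2 had 173.5 ± 1.95 FPKM (SD, n = 3) of both together, clone 1 had 145 ± 1.72, clone 2 had 139 ± 2.56 and HMC-1.1 had 141 ± 4.05. HMC-1.2 lay above all other libraries in this sum as well (exact permutation p = 0.1 for each pair, adjusted 0.15 over 6 pairs), and clone 2 and HMC-1.1 overlapped (exact permutation p = 0.4).

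**Figure D3:**
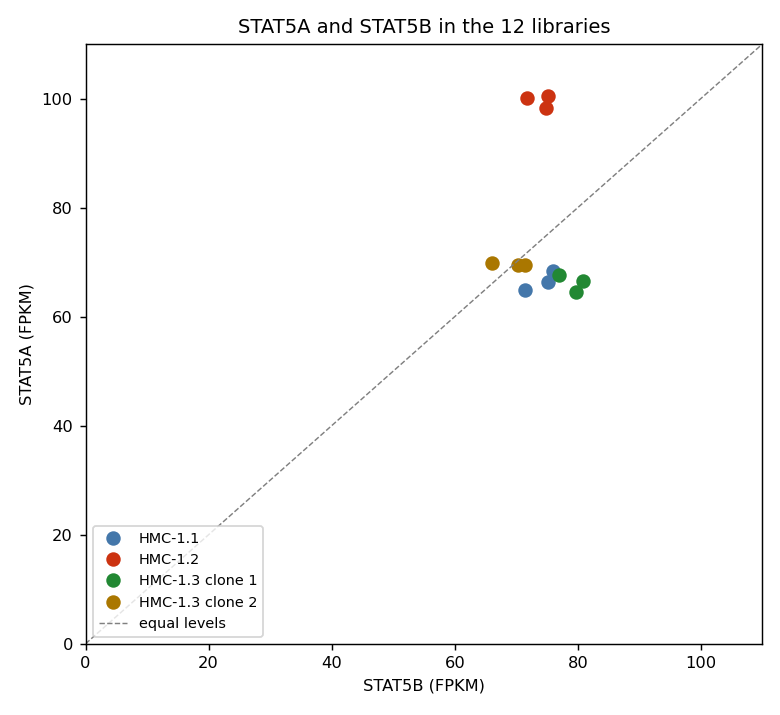
STAT5A (vertical axis) against STAT5B (horizontal axis) in FPKM, with 1 point for each of the 12 libraries and a dashed line of equal levels. The HMC-1.2 libraries lie above the line at ratios of 1.31 to 1.39, and the other 9 libraries lie near or below it, with 1 clone 2 library above it.

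STAT3, which serves interleukin-6 type cytokines and lies 1380 bases past the 3′ end of STAT5A on chromosome 17 (42313324 to 42388540, minus strand), varied little. It measured 66.7, 63.8 and 66.1 FPKM in HMC-1.2, 56.4, 55.8 and 59.4 in clone 1, 60.0, 61.3 and 63.0 in clone 2, and 59.3, 57.5 and 54.1 in HMC-1.1. HMC-1.2 was the highest group with no overlap, and clone 1 and HMC-1.1 overlapped. STAT3 fell by 0.21 (standard error 0.03) both in clone 1 and in HMC-1.1 relative to HMC-1.2, with adjusted p values of 4e-05 and 4.9e-05 (edgeR's quasi-likelihood test, Benjamini-Hochberg adjusted). In clone 2 its log2 difference from HMC-1.2 was -0.08 (95% interval -0.15 to -0.01), which did not pass.

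CISH, an SH2 protein that STAT5 induces and that acts back on cytokine receptors, lies on the minus strand of chromosome 3 (50606489 to 50611774). Promoter windows of RefSeq (GRCh38.p14, 250 bases before to 50 after a start) were searched for TTCNNNGAA, the letters of the STAT5 motif, which read the same on both strands. Windows were at hand for 8 of the 9 genes (not SOCS2), and CISH alone held a match, with 4 of them. At least 1 match was present in 7.66% of 35116 windows of all genes, and 4 or more in 7 windows (0.0199%). The stretches with these matches are shown because they set the CISH promoter apart among the 8 genes searched, 5′ to 3′ on the minus strand with the motif in capitals, at chr3:50611991-50612020 (-246 to -217 bases from the start) and chr3:50611876-50611905 (-131 to -102 bases).
CISH distal pair: ccgttTTCCTGGAAagTTCTTGGAAatctg
CISH proximal pair: ggTTCTAGGAAgacgctgcTTCCGGGAAgg
A match describes letters and is not a site of binding, which was not measured. STAT3, STAT5A, STAT5B, SOCS1, SOCS3, PIM1 and PIM2 held no match in these windows. Among 43 listed genes of the pathway with a window, BCL6 had 4 matches, IL3RA 3 and LIFR 1, counted per window that held any.

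**Figure D4:**
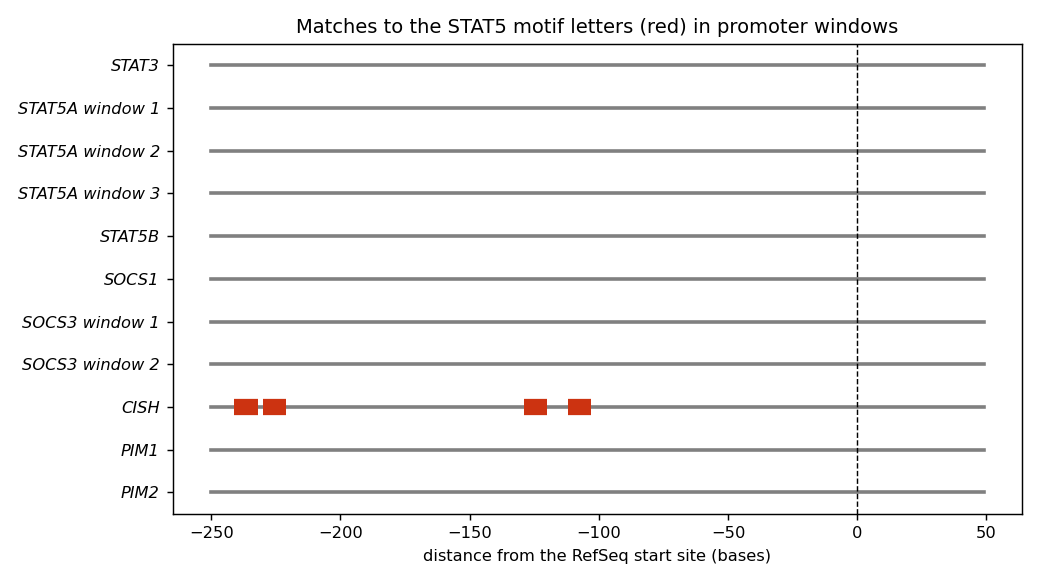
Position of matches to the STAT5 motif letters (red blocks) in the RefSeq promoter windows of 8 of the 9 genes (rows), against distance from the start site in bases (horizontal axis, dashed line at the start). CISH has 4 matches, all before the start, and the other rows have none.

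Expression of CISH was 61.7, 59.2 and 63.8 FPKM in HMC-1.2, 45.8, 41.8 and 42.7 in clone 1, 66.8, 71.0 and 62.6 in clone 2, and 51.5, 49.3 and 52.8 in HMC-1.1. Clone 1 was lowest and HMC-1.1 next, each apart from the other groups, whereas clone 2 and HMC-1.2 overlapped. CISH fell by 0.58 (standard error 0.05) in clone 1 and by 0.31 (0.05) in HMC-1.1 relative to HMC-1.2, with adjusted p values of 1.1e-08 and 1.9e-05 (edgeR's quasi-likelihood test, Benjamini-Hochberg adjusted). Clone 1 was at 0.627 times the level of clone 2 (log2 -0.67, standard error 0.05, edgeR adjusted p = 2.6e-09), the only comparison in which CISH was called, and it was not called there by glmTreat, which tests against 1.5-fold itself (edgeR adjusted p = 0.14). The fall in clone 1 against HMC-1.2 stayed under 1.5-fold, but it passed that threshold with DESeq2 (-0.59) and without replicate 2 of HMC-1.2 (-0.60) or replicate 1 of clone 1 (-0.62).

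Among the SOCS genes, SOCS3 moved most and did so in opposite directions in the clones. SOCS3, which blocks JAK kinases at receptors that use gp130, lies on chromosome 17 (78356778 to 78360077, minus strand). It measured 7.23, 6.82 and 7.88 FPKM in HMC-1.2, 3.01, 3.00 and 2.99 in clone 1, 9.64, 10.6 and 8.99 in clone 2, and 4.48, 3.78 and 5.03 in HMC-1.1. The 4 groups did not overlap, in the order clone 1, HMC-1.1, HMC-1.2 and clone 2. The counts behind these values were 258 to 278 in clone 1 and 834 to 1032 in clone 2. SOCS3 fell by 1.33 (standard error 0.11) in clone 1 and by 0.77 (0.10) in HMC-1.1 relative to HMC-1.2, to 0.399 and 0.585 times its level, with adjusted p values of 1.4e-08 and 6.9e-06 (edgeR's quasi-likelihood test, Benjamini-Hochberg adjusted). The fall in HMC-1.1 was not called by glmTreat (edgeR glmTreat adjusted p = 0.1). In clone 2 SOCS3 rose by 0.40 (standard error 0.10, edgeR adjusted p = 0.0023), under 1.5-fold. Clone 1 thus lay at 0.302 times the level of clone 2 (log2 -1.73, standard error 0.10, edgeR adjusted p = 6.9e-10), and clone 2 at 2.26 times that of HMC-1.1 (log2 1.17, standard error 0.10, edgeR adjusted p = 8.1e-08). Clone 1 was below HMC-1.1 by 0.55 (standard error 0.11, edgeR adjusted p = 0.0028), a difference that was called only without replicate 2 of HMC-1.1 (-0.69). The 19 genes tested within 1 Mb of SOCS3 had a median log2 fold change of -0.21 in clone 1 against HMC-1.2, with 5 called lower and none higher, and of -0.12 in HMC-1.1, with 4 called lower and 1 higher. Between clone 1 and clone 2 their median was -0.18 and none of them was called.

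SOCS1, an inhibitor that binds JAK kinases directly, lies on chromosome 16 (11254417 to 11256204, minus strand). Its libraries gave 32.4, 31.4 and 30.1 FPKM in HMC-1.2, 21.2, 20.4 and 22.9 in clone 1, 29.99, 29.2 and 25.9 in clone 2, and 25.7, 23.5 and 26.0 in HMC-1.1. Clone 1 was lowest in every library, while HMC-1.1 overlapped clone 2 at 25.9 to 26.0. SOCS1 fell by 0.62 (standard error 0.07) in clone 1, by 0.39 (0.07) in HMC-1.1 and by 0.20 (0.07) in clone 2 against HMC-1.2, with adjusted p values of 5.9e-07, 9.8e-05 and 0.021 (edgeR's quasi-likelihood test, Benjamini-Hochberg adjusted). The first of these exceeded 1.5-fold on TMM scaled counts, but not when counts were scaled by library totals alone (-0.56) or in limma on log2(FPKM + 1) (-0.52). The fall of SOCS1 in clone 1 was not called by glmTreat either (edgeR glmTreat adjusted p = 0.69).

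SOCS2, which is known as a brake on growth hormone signals, lies on chromosome 12 (93569814 to 93583487, plus strand). It was 32.0, 34.6 and 34.4 FPKM in HMC-1.2, 38.4, 38.5 and 35.3 in clone 1, 37.0, 40.1 and 39.5 in clone 2, and 31.9, 34.0 and 35.3 in HMC-1.1. Both clones lay above HMC-1.2 on this scale, and they overlapped each other. On counts SOCS2 rose by 0.12 (standard error 0.04) in clone 2 (adjusted p = 0.023 in edgeR's quasi-likelihood test, Benjamini-Hochberg adjusted), whereas in clone 1 the log2 difference from HMC-1.2 was 0.01 (95% interval -0.08 to 0.10) and libraries overlapped. On log2(FPKM + 1) the difference of clone 1 was 0.15 (standard error 0.05, limma adjusted p = 0.035, or 0.055 without the filter on low values), so the reading of SOCS2 in clone 1 depended on the table used and, in FPKM, on the filter.

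PIM2, a kinase whose activity follows its expression since it needs no activating phosphorylation, ranked the sublines as SOCS3 did. It lies on chromosome X (48913182 to 48919024, minus strand). Its level was 109, 111 and 120.45 FPKM in HMC-1.2, 79.5, 73.6 and 71.9 in clone 1, 148, 143 and 135 in clone 2, and 94.1, 86.7 and 96.9 in HMC-1.1. The 4 groups did not overlap, and clone 1 was again lowest and clone 2 highest. PIM2 fell by 0.64 (standard error 0.05) in clone 1 and by 0.34 (0.05) in HMC-1.1 relative to HMC-1.2, and rose by 0.29 (0.05) in clone 2, with adjusted p values of 1.1e-08, 2.6e-05 and 0.00012 (edgeR's quasi-likelihood test, Benjamini-Hochberg adjusted). Clone 1 was at 0.523 times the level of clone 2 (log2 -0.94, standard error 0.05, edgeR adjusted p = 1.8e-10). Clone 2 was at 1.55 times the level of HMC-1.1 (log2 0.63, standard error 0.05, edgeR adjusted p = 3.9e-08), and this value slipped just under 1.5-fold (0.58) without replicate 2 of HMC-1.1. With glmTreat, PIM2 was called neither in clone 1 against HMC-1.2 nor in clone 2 against HMC-1.1 (edgeR glmTreat adjusted p of 0.29 and 0.94). The 40 genes tested within 1 Mb of PIM2 had a median log2 fold change of -0.08 in clone 1 against HMC-1.2, with 4 called higher and 3 lower, and of 0.06 between clone 1 and clone 2, with 1 called higher and 2 lower.

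PIM1, the related kinase on chromosome 6 (37170152 to 37175428, plus strand), was steadier. It measured 403, 383 and 398 FPKM in HMC-1.2, 372, 339 and 345 in clone 1, 371, 374 and 360.4 in clone 2, and 357, 359.7 and 367 in HMC-1.1. HMC-1.2 lay above the other 9 libraries, which overlapped between groups. PIM1 fell by 0.21 (standard error 0.03) in clone 1, by 0.14 (0.03) in clone 2 and by 0.20 (0.03) in HMC-1.1 relative to HMC-1.2, with adjusted p values of 1e-05, 0.00092 and 2.9e-05 (edgeR's quasi-likelihood test, Benjamini-Hochberg adjusted). Between the clones its log2 difference was -0.07 (95% interval -0.14 to -0.01), which did not pass after adjustment (edgeR adjusted p = 0.052).

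The spread of the group means on the log2 CPM scale was thus 1.71 for SOCS3, 0.94 for PIM2, 0.67 for CISH, 0.61 for SOCS1 and 0.58 for STAT5A, and between 0.18 and 0.22 for SOCS2, PIM1, STAT3 and STAT5B. SOCS3, PIM2 and CISH were lowest in clone 1 and highest in clone 2, whereas SOCS1, STAT5A, PIM1 and STAT3 were highest in HMC-1.2. Genes with the most alike pattern were sought for the 3 genes with the widest spread, among 13116 genes, by the root mean square difference in centered log2 CPM over the 12 libraries. For SOCS3 these were RAB27B (difference 0.197), SSTR2 (0.200) and AE000661.37 (0.206). RAB27B, a small GTPase of granule transport, gave 31.0 ± 2.05 CPM (SD, n = 3) in clone 1, 37.1 ± 0.816 in HMC-1.1, 58.6 ± 3.40 in HMC-1.2 and 93.5 ± 0.970 in clone 2. For PIM2 they were LPCAT1 (0.0825) and HSD17B7 (0.0920), an enzyme of cholesterol synthesis, and for CISH they were MBOAT7 (0.0706), CHORDC1 (0.0731) and YOD1 (0.0736).

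The rest of the pathway was read from 5 lists, compared with HMC-1.2 in each clone, where 20.0% (clone 1) and 16.5% (clone 2) of all genes were called and the medians over all genes were 0.014 and 0.0. Of the 8 JAK kinases and other STAT factors, 1 was called higher and 1 lower in clone 1 and none in clone 2. The median of these 8 was -0.05 in clone 1 and 0.04 in clone 2. The genes called were STAT4 (log2 0.78, standard error 0.25, edgeR adjusted p = 0.013) and JAK3, the kinase of the common gamma chain (-0.62, standard error 0.04, edgeR adjusted p = 2.1e-09), both named after their values were seen. STAT4 was at a low level, 0.59 ± 0.111 FPKM in clone 1 against 0.28 ± 0.0781 in HMC-1.2 (SD, n = 3). JAK2 was at 2.96 to 3.30 FPKM on average in all 4 groups and did not pass in either clone, and it too was chosen after its values were seen. Of 13 other negative regulators, none was called in clone 1, and 2 were called higher and 1 lower in clone 2.

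Of 11 other known STAT5 targets, 7 were called lower and 1 higher in clone 1, with a median of -0.61, where 8.18% of all genes were called lower. In clone 2, 2 were called lower and none higher, with a median of -0.43, a count near the 16.5% of all genes called there. In HMC-1.1, 5 were called lower than in HMC-1.2 and none higher, where 17.6% of all genes were called and 7.52% called lower. The cyclin D1 gene CCND1 fell by 3.03 (standard error 0.09) in clone 1 and by 1.07 (0.08) in clone 2, with edgeR adjusted p values of 3.1e-14 and 3.7e-09. It was at 10.3 ± 0.796 FPKM in HMC-1.2, 1.34 ± 0.266 in clone 1, 4.62 ± 0.527 in clone 2, and HMC-1.1 had 1.35 ± 0.172 (SD, n = 3). IL2RA was the other gene called lower in both clones. BCL6, a repressor that STAT5 is known to turn down, was the 1 gene called higher in clone 1 and was named after its values were seen. It was at a low level of 1.03 ± 0.191 FPKM against 0.593 ± 0.129 in HMC-1.2. In clone 2 its log2 difference from HMC-1.2 was -0.38, which did not pass (edgeR adjusted p = 0.098). BCL2L1, also named after its values were seen, rose by 0.32 (standard error 0.03) in clone 1 and 0.27 (0.03) in clone 2. Both were under 1.5-fold (edgeR adjusted p of 2.7e-07 and 2.4e-06). MCL1 of the same list, also named after its values were seen, fell by 0.88 (standard error 0.03) in clone 1, where it was called. In clone 2 MCL1 fell by 0.43 (0.03), under 1.5-fold (edgeR adjusted p of 4.7e-14 and 5.3e-10). By adjusted p alone, 9 of the 11 were lower and 2 higher in clone 1, beside 29.3% of all genes lower. In clone 2, 8 were lower and 1 higher, beside 23.8% and 24.7%. Of 8 known STAT3 targets, FOS was the only one called in clone 1, and FOS and VEGFA in clone 2, all lower. These counts were near the shares of all genes called, 20.0% in clone 1 and 16.5% in clone 2. By adjusted p alone, 1 of the 8 was higher and 4 were lower in clone 1. In clone 2, 3 of the 8 were higher and 5 lower. The median of the 8 was -0.17 in clone 1 and -0.20 in clone 2. FOS, a subunit of AP-1, fell by 1.67 (standard error 0.08) in clone 1 and by 0.87 (0.07) in clone 2 (edgeR adjusted p of 7.8e-12 and 2.2e-08). VEGFA, named after its values were seen, fell by 0.67 (standard error 0.04, edgeR adjusted p = 9.3e-11).

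The receptor chains that feed JAK kinases and STAT factors held the widest differences of the 5 lists. Of the 14 chains tested, 7 were called lower and 1 higher in clone 1, with a median of -0.61. There 20.0% of all genes were called and 8.18% called lower. In clone 2, 5 were called lower and 1 higher, with a median of -0.49, beside 16.5% of all genes called in either direction. IL2RG, the common gamma chain of the interleukin-2 family of receptors, was at 17.8 ± 1.42 FPKM in HMC-1.2, 1.55 ± 0.321 in clone 1, 1.64 ± 0.525 in clone 2, and HMC-1.1 had 1.08 ± 0.214 (SD, n = 3). It fell by 3.96 (standard error 0.13) in clone 1 and by 3.81 (0.13) in clone 2, with edgeR adjusted p values of 8.1e-14 and 1e-13. IL2RB, its partner in the interleukin-2 receptor, fell by 1.18 (0.05) in clone 1 and fell by 3.13 (0.05) in clone 2. IL5RA, which with its beta chain activates STAT5, fell by 1.73 (0.07) and fell by 2.99 (0.08). LIFR, a partner of gp130, fell by 3.25 (0.15) in clone 1 and by 1.55 (0.12) in clone 2. For these 3 genes the clones differed as well, by 1.95 for IL2RB and 1.26 for IL5RA, both lower in clone 2, and by -1.70 for LIFR, lower in clone 1 (edgeR adjusted p of 3.7e-14, 2.2e-09 and 1.1e-07). The chain called higher in both clones was IL9R (log2 fold changes of 1.495 and 1.42), named after its values were seen, which lies in the pseudoautosomal region, where reads may be divided between the X and Y copies. KIT itself, named as the gene the sublines differ in and not by its change, rose by 0.29 (standard error 0.03) in clone 1 and 0.16 (0.03) in clone 2, with edgeR adjusted p values of 2.9e-07 and 0.0003, both under 1.5-fold.

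**Figure D5:**
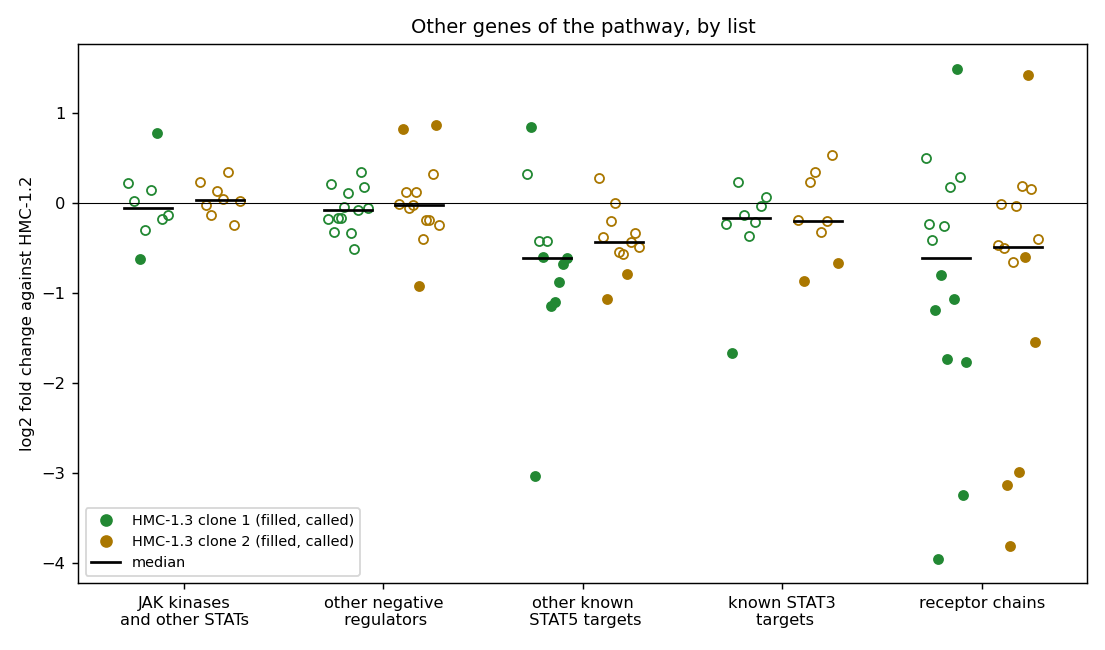
Log2 fold change against HMC-1.2 (vertical axis) of the genes in 5 lists of the pathway (horizontal axis), in HMC-1.3 clone 1 and clone 2. Each point is a gene, filled where it was called, and bars are list medians. The STAT5 targets have medians of -0.61 and -0.43, and the receptor chains reach from -3.96 to 1.495.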

How the data were processed

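RNA from 12 cultures of HMC-1 sublines was sequenced, 3 in each of 4 groups taken from the labels. The authors used cutadapt 2.10 for trimming, STAR 2.5.3 for alignment to hg38, Picard for marking duplicates and RSEM 1.3.0 for expected counts per gene, and they deposited these unnormalized (7.39% of values not whole) beside FPKM, scaled for transcript length and depth.

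Counts were rounded and tested with edgeR 4.0.16 (R 4.3.3), by TMM, filterByExpr and the quasi-likelihood test with 4 groups and no other term, adjusted by Benjamini and Hochberg over 15944 genes. Library totals ran from 29225900 to 43181402, and intervals are 95%. Levels are FPKM. Ratios were compared by exact permutation. The 9 genes, the lists and the tests were chosen with earlier results of these data known. From each list the text names genes called with 1 sign in both clones, at most 4 by mean fold change, and other names are marked as chosen later, KIT being named as the mutated gene. Positions come from Gencode 44 (GRCh38), which holds 99.0% of the identifiers, and promoter windows from RefSeq. Tested on simulated data for clone 1 against HMC-1.2 over 15679 genes, edgeR recovered 196 of 200 changed genes with 3 false calls. All changed genes were simulated well beyond 1.5-fold and none near it, so recovery near 1.5-fold was not tested. Nor was recovery tested with 20.0% of genes changed, the share called in that comparison. Alternatives were DESeq2 1.42.0, limma 3.58.1 on log2(FPKM + 1) or log2(FPKM + 0.1), other filters, scalings and models, and leaving out each library. Libraries of a group differed by more than sampling noise (chi-square per degree of freedom 2.88 to 8.01). The reads were not used here. Some listed or alike genes are not reported here.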

Additional observations from a re-analysis of the deposited data

Results flagged for a closer look

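For 8 of the 9 genes the edited clones differed from each other with adjusted p values below 0.05 (edgeR's quasi-likelihood test, Benjamini-Hochberg adjusted), although the labels give both clones the same KIT genotype. On the log2 scale, as clone 1 minus clone 2, the difference was -1.73 for SOCS3, -0.94 for PIM2, -0.67 for CISH, -0.42 for SOCS1, -0.13 for STAT3, -0.11 for SOCS2 and -0.09 for STAT5A (-0.085). STAT5B was the exception in direction, at 0.18. Only SOCS3, PIM2 and CISH differed by over 1.5-fold, and 50.2% of all genes tested passed the same threshold of adjusted p between the clones.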

How the results depend on the processing

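The differences of SOCS3, PIM2 and STAT5A from HMC-1.2 kept their direction under every alternative run, and so did those of CISH and SOCS1. In clone 1 against HMC-1.2, 5 of the 9 genes were called with DESeq2 and 1 when edgeR's glmTreat tested against 1.5-fold itself. With glmTreat 0 were called in HMC-1.1 relative to HMC-1.2, 1 in clone 2 against HMC-1.1 and 2 in clone 1 against clone 2 (CISH lost). Leaving out 1 library at a time gave 3 to 5 in clone 1 against HMC-1.2 (5 without replicate 1 of clone 1), 0 to 1 in clone 1 against HMC-1.1 and 1 to 2 in clone 2 against HMC-1.1 (1 more and 1 less without replicate 2 of HMC-1.1). Over all genes, in the order clone 1, clone 2 and HMC-1.1 against HMC-1.2, clone 1 and clone 2 against HMC-1.1, and clone 1 against clone 2, glmTreat called 1932, 1612, 1618, 9, 552 and 837 genes. Limma on log2(FPKM + 1) called 1933, 1482, 1541, 63, 572 and 987, and without a filter 1907, 1457, 1511, 50, 550 and 943. The main test called 3193, 2630, 2803, 161, 1306 and 2013, and DESeq2 called 60 in clone 1 against HMC-1.1, where leaving out 1 library gave 107 to 197. Apart from the construction of glmTreat, the causes of these shifts were not tested.

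Signs turned only where values were close to 0 and not past the threshold. SOCS2 in clone 1 against HMC-1.2 was -0.00111 with DESeq2 and -0.0286 to 0.0288 without 1 library, and in HMC-1.1 it was 0.00217, 0.00222 and 0.00217 in the limma fits with a pseudocount of 1, with 0.1 and without a filter. STAT5B in HMC-1.1 relative to HMC-1.2 was -0.00409 with DESeq2, -0.00261 with a filter of 0.5 CPM and -0.0221 to 0.0236 without 1 library. In clone 1 against HMC-1.1, STAT3 was -0.00935 with DESeq2, -0.0027 without a filter, -0.00494 with only the groups compared, -0.00978 with a term for resent libraries, -0.0178 without the resent libraries (chosen after seeing the data) and -0.0247 to 0.0287 without 1 library. PIM1 there was 0.00653 with library totals only, 0.00112 without the resent libraries and -0.0486 to 0.00692 without 1 library. Libraries with the same replicate number were at most weakly alike: of 18 same-numbered pairs 6 had a correlation of deviations over 0.1 (range -0.13 to 0.264). Of the 12 libraries, 7 correlated best with their own number, and these values do not settle whether the numbers pair the libraries. With a replicate block, 3, 0, 1, 0, 2 and 3 of the 9 genes were called in the order above, as in the main test. Among the 9 genes the lowest counts were those of SOCS3 in clone 1, at 258 to 278. Some listed genes, among them CCND1, STAT4, BCL6, IL2RG and LIFR, lay below SOCS3 in CPM there.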

Other observations

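Among the 13 other negative regulators of the pathway, those called in HMC-1.3 clone 2 against HMC-1.2 were PTPN2, PIAS2 and SOCS6, named after their values were seen, and all 3 lie on chromosome 18. In this comparison 16.5% of all genes were called. PTPN2, a phosphatase that acts on JAK and STAT proteins, was at 13.6 ± 0.141 FPKM (SD, n = 3) in clone 2, while HMC-1.2 had 25.2 ± 1.63, clone 1 had 28.5 ± 0.937 and HMC-1.1 had 29.2 ± 1.35. It fell by 0.92 on the log2 scale (standard error 0.05, edgeR adjusted p = 2e-10), and the 18 other genes tested within 1 Mb of it had a median of -0.96, with 16 called lower. PIAS2 rose by 0.82 (standard error 0.04, edgeR adjusted p = 2.2e-11) and SOCS6 by 0.87 (0.05, adjusted p = 4.9e-10). The 14 genes tested near PIAS2 had a median of 0.53, with 4 called higher and 3 lower, and the 2 near SOCS6 a median of 0.77, with 1 called higher. In clone 1 against HMC-1.2 the medians near PTPN2, PIAS2 and SOCS6 were -0.01, -0.05 and 0.24, and SOCS6 itself was higher by 0.17 there. No copy number was measured in these data.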
